A study of Mus musculus with 15 samples.

Results

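A set of 10 germ cell genes was followed in newborn mouse kidneys that had lost the maintenance DNA methyltransferase Dnmt1 in a part of their cells. They were the RNA-binding protein genes Dazl and Boll, the transcription factor genes Sohlh1, Sohlh2, Figla and Nobox, the Tudor domain genes Stk31 and Tdrd12, the ADP/ATP carrier gene Slc25a31 and the dipeptidase gene Dpep3. They are 10 of the 46517 genes in the count tables. The set, built around Dazl and Sohlh2, was chosen by the RNA values of these same libraries, knockout against control. The RNA difference of these genes between knockout and control is therefore a description: it is given without p-values, and nothing is read from how many of the genes were called. Their DNA methylation came from other libraries and another assay, and it was tested.

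All samples came from mice of the strain C57BL/6. Controls had the genotype Dnmt1 f/f and knockouts (KO) the genotype Six2Cre Dnmt1 f/f, both at postnatal day 0 (P0), so both groups carried the floxed alleles and the KO group alone carried the Cre. Six2-driven Cre is active in the nephron progenitors and is inherited by the nephron epithelium that they form, while stroma, vessels, ureteric epithelium and blood cells lie outside that lineage. The source field of the labels speaks of Six2+ cells and the protocol speaks of whole kidneys, and the values below are read as those of kidney tissue that can hold cells with and without the deletion. RNA sequencing covered 3 control and 3 KO libraries. Reduced representation bisulfite sequencing (RRBS), which reads cytosine methylation in CpG-rich restriction fragments, covered 3 control and 3 KO samples and also 3 wild type adults of 6 weeks. The adults are labelled wild type, so age and genotype cannot be told apart in that comparison, and neither can age and sex. The labels do not say that replicates came from separate animals, and p-values then measure the spread between these samples, which may be technical.

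In germ cells, DAZ family proteins bind messenger RNAs and control their translation, Sohlh1 and Sohlh2 are basic helix-loop-helix factors of early spermatogonia and growing oocytes, and Figla and Nobox drive the oocyte programme. Many such genes have CpG-rich promoters that are methylated and silent in somatic tissues, and Dnmt1 copies methylation onto the new strand after each round of DNA replication. The sequences below are the 250 bases before the annotated start of 6 of the genes, taken from RefSeq (GRCm38.p6), written 5′ to 3′ on the strand of the gene with each CpG in capitals. The first 4 precede the starts whose methylation fell in the KO and whose RNA was abundant there. Figla and Nobox are shown beside them as genes whose RNA stayed at or near 0.
Dazl, chr17:50293621-50293870, minus strand: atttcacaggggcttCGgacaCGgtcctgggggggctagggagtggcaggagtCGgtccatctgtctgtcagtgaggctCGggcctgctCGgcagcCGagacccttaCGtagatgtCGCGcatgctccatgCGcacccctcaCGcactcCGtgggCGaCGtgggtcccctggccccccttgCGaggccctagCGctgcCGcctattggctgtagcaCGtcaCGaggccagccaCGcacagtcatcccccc
Sohlh2, chr3:55181794-55182043, plus strand: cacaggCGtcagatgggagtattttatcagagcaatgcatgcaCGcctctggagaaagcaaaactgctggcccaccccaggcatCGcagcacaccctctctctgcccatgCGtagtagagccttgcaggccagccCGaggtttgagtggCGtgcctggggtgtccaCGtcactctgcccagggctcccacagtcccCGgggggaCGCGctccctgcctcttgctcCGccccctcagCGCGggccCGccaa
Slc25a31, chr3:40708621-40708870, plus strand: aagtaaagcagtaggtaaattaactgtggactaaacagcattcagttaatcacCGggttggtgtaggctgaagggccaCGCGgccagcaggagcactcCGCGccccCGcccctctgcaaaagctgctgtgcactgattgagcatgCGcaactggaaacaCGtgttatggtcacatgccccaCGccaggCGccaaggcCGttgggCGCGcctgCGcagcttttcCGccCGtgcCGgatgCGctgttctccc
Dpep3, chr8:105979420-105979669, minus strand: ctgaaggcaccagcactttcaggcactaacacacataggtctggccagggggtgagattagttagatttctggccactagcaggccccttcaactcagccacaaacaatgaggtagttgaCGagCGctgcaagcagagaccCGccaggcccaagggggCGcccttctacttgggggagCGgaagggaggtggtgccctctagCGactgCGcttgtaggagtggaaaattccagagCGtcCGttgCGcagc
Figla, chr6:86016941-86017190, plus strand: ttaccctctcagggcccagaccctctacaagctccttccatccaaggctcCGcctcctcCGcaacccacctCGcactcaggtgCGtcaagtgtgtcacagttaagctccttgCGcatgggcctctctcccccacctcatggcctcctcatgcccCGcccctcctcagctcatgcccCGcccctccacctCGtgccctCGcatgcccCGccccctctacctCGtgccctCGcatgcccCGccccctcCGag
Nobox, chr6:43309555-43309804, minus strand: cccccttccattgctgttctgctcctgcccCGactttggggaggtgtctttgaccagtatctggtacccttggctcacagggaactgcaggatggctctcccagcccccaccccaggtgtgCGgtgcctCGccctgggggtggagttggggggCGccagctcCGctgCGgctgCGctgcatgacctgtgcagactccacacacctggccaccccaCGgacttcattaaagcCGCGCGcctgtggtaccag

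These windows held 20 CpGs before Dazl, 14 before Sohlh2, 18 before Slc25a31, 10 before Dpep3, 14 before Figla and 11 before Nobox, against a median of 6 over the 32841 such windows in the table. Fewer CpGs than Dazl were found in 82.0% of all windows, and fewer than Dpep3 in 62.2%. CpG number did not separate the genes with abundant RNA from the others: Figla had as many as Sohlh2, and the window before the Boll start at 55362728 had 33, more than 96.0% of all windows. The E-box CACGTG, which is bound by Max and its partners, was searched on both strands (it reads the same on each). It was present in 5 of the 13 windows of the set, those of Slc25a31 and Sohlh1, the Boll window at 55363753 and both overlapping windows of Stk31, and in 6.02% of all windows. The letters TCCCGC, a core bound by E2f6, or their reverse GCGGGA, were in none of the 13 windows and in 16.9% of all windows. A match is a description of the letters and not of binding.

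RNA libraries held 26773937 to 34102567 reads in genes, and 14% to 28.0% of the alignments in them were not unique. Control 3 stood apart from the other controls, with correlations of log2 CPM (read counts scaled to library size) of 0.971 and 0.973 against 0.993 between controls 1 and 2. RRBS libraries held 18424875 to 88765177 calls, fewest in KO 3. The targeted gene Dnmt1 went from 175 ± 16.6 CPM in controls to 105 ± 9.57 CPM in the KO libraries (SD, n = 3 each), a log2 fold change of -0.74 (SE 0.12, edgeR adjusted p 0.00577). Of 4 tested germ cell markers Ddx4 was higher and Dnd1, Nanos3 and Kit did not pass, Dppa3 had no read in any library and Pou5f1 had 1, in control 3. Every KO library lay above every control for Dnd1, as in 13.6% of the 30538 genes with any read. For Kit every KO library lay below every control, a pattern whose share over all genes is not given here. Kit made up most of the germ cell sum, at 26.7 ± 2.30 CPM in KO against 39.4 ± 12.6 CPM in controls (SD, n = 3 each). Summed germ cell markers were 34.5 to 57.6 CPM in controls and 29.3 to 34.6 CPM in KO, gonad somatic markers 10.9 to 17.5 and 9.28 to 11.7 CPM, and adrenal markers 4.75 to 8.45 and 5.74 to 6.08 CPM, with 0 of the 4 tested gonad somatic and 0 of the 3 tested adrenal markers called by edgeR. All 4 proximal tubule, 4 podocyte and 2 thick limb markers and 2 of 3 endothelial markers were lower in KO. Of 5 nephron progenitor markers 2 were higher and 1 lower, and 1 of 4 ureteric, 1 of 3 stromal and 1 of 3 leukocyte markers was higher. Their part in the results below was not tested, and in bulk tissue fewer cells of a type and less RNA per cell cannot be told apart.

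Of the DAZ family genes, Dazl was nearly silent in controls and abundant in KO, and Boll was near 0 in both. Dazl (ENSMUSG00000010592.8, chromosome 17, 50279393 to 50293620, minus strand) had 0, 5 and 4 reads in controls 1 to 3 and 2060, 1780 and 2532 reads in KO 1 to 3. Every KO library lay far above every control, and the level averaged 72.9 ± 20.4 CPM in KO against 0.0902 ± 0.0825 CPM in controls (SD, n = 3 each). Scaled for library size the KO total was 800 times the control total (95% interval 421 to 1751, counting error only). Boll (chromosome 1, 55243566 to 55363789, minus strand), the ancestral member of the family, which acts in meiosis, had 6, 7 and 3 reads in controls and 6, 4 and 4 in KO. Its groups overlapped and the ratio of totals was 0.989 (95% interval 0.447 to 2.16).

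Of the transcription factors, Sohlh2 alone reached an appreciable level. Sohlh2 (ENSMUSG00000027794.4, chromosome 3, 55182044 to 55209957, plus strand) had 0, 0 and 1 read in controls and 1121, 1110 and 1298 reads in KO, or 40.2 ± 7.92 CPM in KO (SD, n = 3). The ratio of totals was 3990, but with 1 control read its 95% interval ran from 716 to 157624. Its partner Sohlh1 (chromosome 2, 25842995 to 25847248, minus strand) had 0, 3 and 0 reads in controls and 8, 4 and 4 in KO. The KO libraries lay above the controls, at a ratio of 6.03 (95% interval 1.73 to 32.3), yet the mean in KO was 0.177 ± 0.0630 CPM. Every KO library lay above every control in 13.6% of the 30538 genes with any read. Figla (chromosome 6, 86016494 to 86020996, plus strand), which switches on the zona pellucida genes in oocytes, had no read in 5 libraries and 2 in KO 3. Nobox (chromosome 6, 43303674 to 43310072, minus strand), an oocyte homeobox gene, had 2, 3 and 6 reads in controls and 3, 2 and 2 in KO, with overlapping groups.

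**Figure D1:**
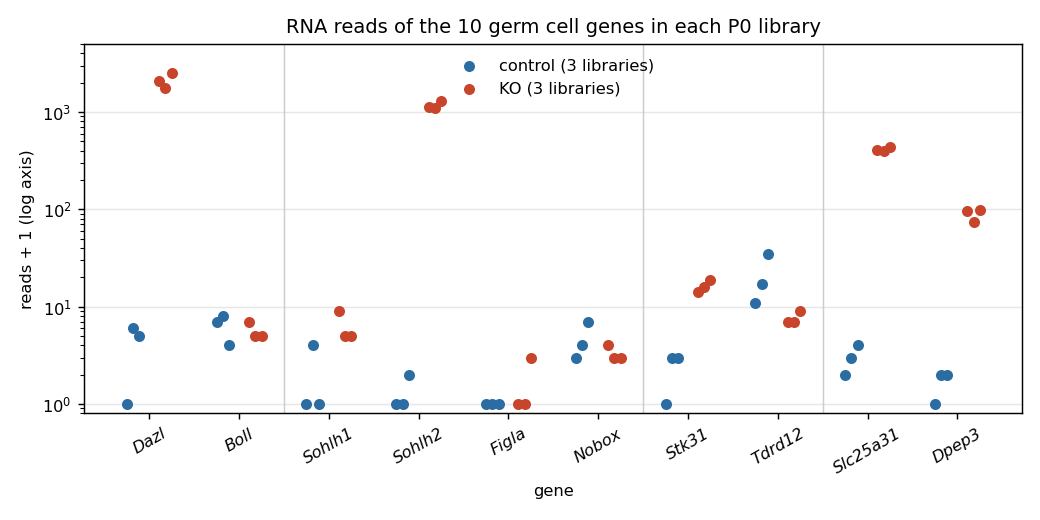
Reads of each of the 10 genes in the 3 control and 3 KO libraries, plotted as reads + 1 on a log axis with 1 point per library; vertical lines separate the DAZ family, the transcription factors, the Tudor genes and the metabolic genes. Dazl, Sohlh2, Slc25a31 and Dpep3 had 73 to 2532 reads in the KO libraries and at most 5 in any control, while Boll, Figla and Nobox stayed under 10 reads throughout.

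The Tudor domain genes lay at low levels, with more reads of Stk31 and fewer reads of Tdrd12 in KO. Stk31 (chromosome 6, 49395506 to 49469506, plus strand), a germ cell protein with a Tudor and a kinase-like domain, had 0, 2 and 2 reads in controls and 13, 15 and 18 in KO, at 0.527 ± 0.143 CPM in KO and a ratio of 13 (95% interval 4.75 to 49.7). Tdrd12 (chromosome 7, 35466941 to 35537784, minus strand), a piRNA biogenesis factor, had 10, 16 and 34 reads in controls and 6, 6 and 8 in KO. Here every KO library lay below every control, at a ratio of 0.377 (95% interval 0.215 to 0.634), with the highest value in control 3, the RNA library that stands apart. The share of all genes with every KO library below every control is not given here, so nothing is read from that order.

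The carrier and the dipeptidase were both off in controls and on in KO. Slc25a31 (ENSMUSG00000069041.8, chromosome 3, 40708871 to 40726094, plus strand), the ADP/ATP carrier that replaces the X-linked Slc25a5 in male meiosis, had 1, 2 and 3 reads in controls and 405, 398 and 435 in KO. That was 14.1 ± 2.15 CPM in KO and a ratio of 233 (95% interval 107 to 637). Dpep3 (ENSMUSG00000031898.8, chromosome 8, 105973520 to 105979419, minus strand), a membrane-bound dipeptidase of the testis, had 0, 1 and 1 read in controls and 96, 73 and 97 in KO, or 3.02 ± 0.647 CPM, at a ratio of 150 (95% interval 41.2 to 1248). Levels were not compared between genes, because gene lengths on the transcript were not used here.

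Of the 10 genes, 5 passed the edgeR filter on low counts (Dazl, Sohlh2, Stk31, Slc25a31 and Dpep3), each through its KO libraries, and all 5 were called higher, where 6.36% of the 18132 tested genes were called higher and 8.23% lower. Their log2 fold changes were 9.61 for Dazl, 11.50 for Sohlh2, 7.79 for Slc25a31, 6.99 for Dpep3 and 3.59 for Stk31. Since this contrast chose the genes, nothing is read from that count. Sohlh1, Figla, Tdrd12, Boll and Nobox did not pass the filter. Across it, the gene with the least KO reads that passed was Stk31, with 46 reads over the KO libraries, and the one with the most KO reads that did not pass was Tdrd12, with 20.

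Some genes of the wider germ cell programme were higher in KO. Of 15 germ cell transcription factors outside the set, 10 were tested and 4 were higher in KO by edgeR. Over all 18132 genes tested, 6.36% were higher and 8.23% lower. The median log2 fold change was 0.81 against -0.000738 over all genes tested. In the germ cell lists, genes with few or no control reads passed the low-count filter through their KO libraries. All lists were chosen with earlier results of these data known, so nothing is read from their counts and medians. Taf7l, a TFIID subunit of spermatocytes, had 1, 2 and 1 reads in controls and 84, 53 and 44 in KO (log2 fold change 5.52, SE 0.48, edgeR adjusted p 3.34e-04). Stra8, the gene that licenses meiosis, had no control read and 28, 32 and 22 reads in KO, at least 30.9-fold higher (edgeR adjusted p 0.00147). Dmrtb1, which times the entry into meiosis, had no control read and 32, 23 and 21 in KO, at least 28.6-fold higher (edgeR adjusted p 0.00168). The bounds take 3 reads over the 3 control libraries as the floor. Tcfl5 rose from 0.550 ± 0.127 to 1.97 ± 0.0893 CPM (SD, n = 3 each, edgeR adjusted p 0.00536). The 1 gene that fell, Ovol1 (log2 fold change -0.72), is named after its value was seen, and 7 of 14 alternative settings lost its call.

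Most of the oocyte genes that Figla, Nobox, Sohlh1 and Sohlh2 regulate had too few reads to be tested. Of 14, 5 were tested and 1 was higher: Gdf9, an oocyte growth factor, with 6, 7 and 9 reads in controls and 31, 18 and 11 in KO (edgeR adjusted p 0.0468), a call that 12 of 14 alternatives lost. The median log2 fold change of the 5 was -0.36. The zona pellucida genes Zp1, Zp2 and Zp3, had 1, 4 and 4 reads over the controls and 4, 18 and 14 over the KO libraries and were not tested, and 4 of the 14 genes had no read in any of the 6 libraries. The zona pellucida genes are named as known targets of Figla and after their values were seen. Among partners and bound messenger RNAs of DAZ proteins, 14 of 15 were tested and 3 were higher. Tex19.1, a defender of the germline genome against transposons, had 0, 1 and 0 reads in controls and 354, 319 and 352 in KO (edgeR adjusted p 5.01e-05), a ratio of 1159 (95% interval 208 to 45813). Ddx4, the germ cell RNA helicase, rose from 0.491 ± 0.159 to 2.01 ± 0.668 CPM, and Tex14, a protein of germ cell bridges, from 0.587 ± 0.221 to 2.06 ± 0.303 CPM (SD, n = 3 each, edgeR adjusted p 0.0123 and 0.0132).

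Tudor and piRNA factors also held genes that rose. Of 17 genes, 13 were tested, 6 were higher and 1 was lower by edgeR, and the median log2 fold change was 0.74. Mov10l1, the helicase that feeds piRNA precursors into processing, had no control read and 171, 182 and 196 in KO, at least 207-fold higher (edgeR adjusted p 2.22e-04). Asz1, a piRNA factor of the outer mitochondrial membrane, had 1, 0 and 1 reads in controls and 78, 92 and 102 in KO, a ratio of 154 (95% interval 42.2 to 1276). Mael had 0, 0 and 2 reads in controls and 28, 30 and 49 in KO, a ratio of 60.5 (95% interval 16.3 to 506), and Piwil2, a PIWI protein, rose from 0.451 ± 0.294 to 3.88 ± 0.883 CPM (SD, n = 3 each, edgeR adjusted p 0.00560). The others were Rnf17 and again Ddx4, which both lists hold. Tdrd5, named after its value was seen, fell from 5.01 ± 2.48 to 1.37 ± 0.106 CPM (SD, n = 3 each, edgeR adjusted p 0.0131), with 288 of its control reads in control 3, the library that stands apart, and 4 of 14 alternatives lost the call.

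Of the 4 somatic relatives of the carrier and the dipeptidase, 2 were lower in KO by edgeR and 0 higher. Slc25a5, the main ADP/ATP carrier of proliferating somatic cells, fell from 538 ± 26.8 to 215 ± 22 CPM (log2 fold change -1.33, edgeR adjusted p 6.45e-04). Slc25a4 had 643 ± 55.4 and 456 ± 35.7 CPM and did not pass (edgeR adjusted p 0.0539). Dpep1, the dipeptidase of the proximal tubule brush border, fell from 59.8 ± 60.8 to 12.1 ± 1.67 CPM (edgeR adjusted p 0.0476), with 4769 of its 6369 control reads in control 3, and the proximal tubule markers were lower too. Dpep2 had 0.627 ± 0.170 and 0.573 ± 0.367 CPM and overlapping groups. The count of 2 lower relatives became 1 under 7 of the 14 alternatives and 3 without control 3. Slc25a5 has processed copies in the genome that can share its reads. Of 16 somatic repressors of germ cell genes, all tested, Mga, the partner of Max in the complex with E2f6 and Pcgf6, was higher (log2 fold change 0.61, edgeR adjusted p 0.0110) and Dnmt1 itself was lower, and the median was 0.07. Without control 3 the lists held 5, 1, 4 and 7 higher genes in the order given, and 3 higher repressors.

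**Figure D2:**
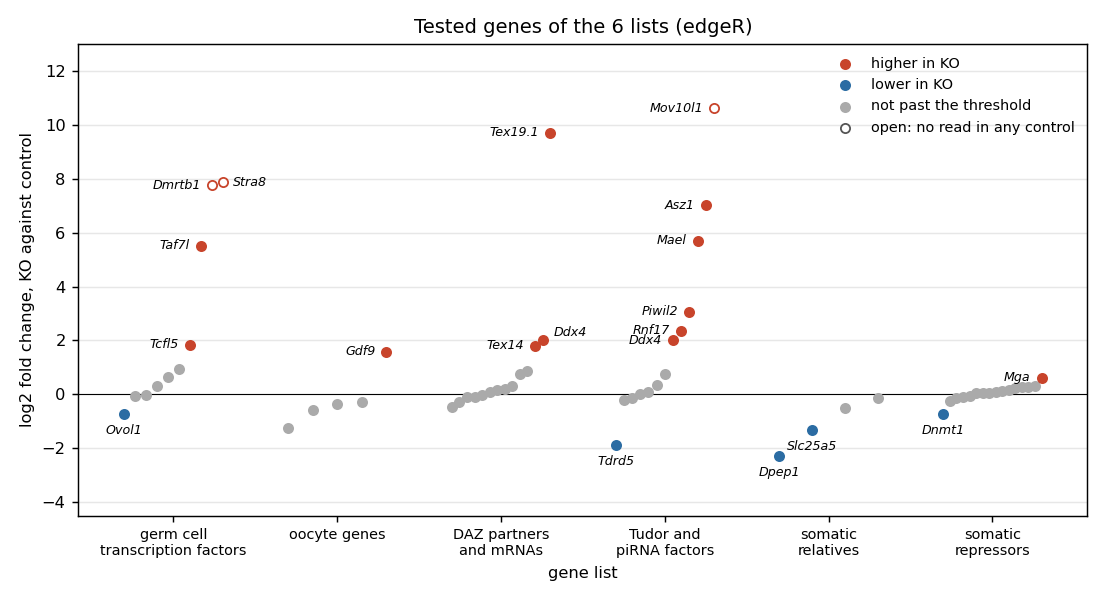
Log2 fold change (KO against control, edgeR) of the tested genes of the 6 lists, 1 point per gene, red where the gene was higher, blue where it was lower and grey where it did not pass an adjusted p of 0.05; open points had no read in any control, and their fitted fold is no bound. Tudor and piRNA factors held 6 higher genes and the oocyte list 1.

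The genes most like Dazl and Sohlh2 over the 6 RNA libraries had at most 1 read over the controls and reads in every KO library. Likeness was the Pearson correlation of log2(CPM + 0.5) over the 6 samples among 14062 tested genes with a mean of at least 1 CPM in KO. The genes of the set, clone names (Gm and Rik) and genes with no symbol were left out of these candidates. Nearest to Dazl were Tex19.1, Tmem92, Kdm4dl, Tcstv3 and Rhox2f (r 0.999 for each), and nearest to Sohlh2 were Rhox2f, Usp17lb, Tmem92, Cntnap5b and Tcstv3 (r 0.99975 to 0.99997). Tmem92 had 439, 403 and 499 reads in KO and Tcstv3, a gene of the early embryo, 272, 240 and 260, with no read in controls. Many genes had a similar pattern: 385 candidates correlated with Dazl above 0.95 and 377 with Sohlh2. Rhox2f, Usp17lb and Tcstv3 have near-identical copies that can share reads.

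The start windows of Dazl, Sohlh2, Slc25a31 and Dpep3 were heavily methylated in control kidney and lost a part of that methylation in KO. A start window spanned 1000 bases on each side of each annotated start and used positions that had 5 or more calls in every one of the 9 samples. It passed at an adjusted p under 0.05 in a quasi-binomial model together with a change of 10 percentage points or more. Windows of 6 genes held the 3 positions needed, and 4 of the 6 were lower in KO, where 8% of 13247 windows were lower and 0.00755% higher. As 10079 of the windows were under 10% in controls, the share among methylated windows is the nearer measure. Of 355 windows at 90% or more in controls, 80.3% were lower, with a median of -23.6 points, and of 903 windows at 60% to 90%, 60.6% were lower, with a median of -22.3 points.

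At Sohlh2, 37 positions gave 95.2%, 97.4% and 97.0% methylated calls in controls and 81.9%, 70.5% and 77.4% in KO. The means were 96.5% ± 1.13 and 76.6% ± 5.74 (SD, n = 3 each), a difference of -19.9 points (quasi-binomial adjusted p 7.28e-05), from 425 to 2200 calls per sample. All KO samples lay below all controls. The 9 positions inside the 250 bases printed for Sohlh2 had 95% ± 2.86 in controls and 61.4% ± 23.6 in KO, with KO samples from 39.1% to 86.1%. At Slc25a31, 19 positions gave 94.9%, 91.1% and 96.5% in controls and 70.3%, 71.6% and 79.0% in KO, a difference of -20.5 points (quasi-binomial adjusted p 2.09e-04). The 3 positions inside the 250 bases printed for Slc25a31 had 95.4% ± 3.40 in controls and 81.1% ± 14.2 in KO. There the KO samples, from 66.2% to 94.6%, overlapped the controls, from 91.7% to 98.3%. At Dpep3, where 5 positions between 185 and 280 bases after the start could be used, the values were 92.1%, 96.7% and 95.4% in controls and 72.7%, 56.4% and 66.7% in KO, a difference of -29.4 points (quasi-binomial adjusted p 5.48e-04). Over the start windows of Slc25a31 and Dpep3 the groups did not overlap, as at Sohlh2. The share of all windows with such a separation was not counted, and nothing is read from it. Weighing each position the same in a limma fit, Slc25a31 and Dpep3 kept their direction and lost the call (adjusted p 0.0917 and 0.0747).

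Dazl combined a methylated start with an unmethylated stretch inside the gene. Its 32 positions gave 85.6%, 86.0% and 72.0% in controls and 71.4%, 67.8% and 64.7% in KO, or 81.2% ± 7.97 and 68.0% ± 3.35 (SD, n = 3 each), a difference of -13.2 points (quasi-binomial adjusted p 0.0126). In a split made after seeing the values, the 5 positions from 754 to 794 bases after the start were at 0.519% ± 0.470 in controls and 1.33% ± 1.15 in KO, and the 27 others, at -618 to 417 bases from the start, had 94.0% ± 1.07 and 75.8% ± 3.35. The unmethylated 5 took 22.7% of the calls of the window in control 3 and 9.30% and 9.43% in controls 1 and 2, the control that was lowest over the whole window. The call for Dazl was lost with a minimum of 10 calls (-10.6 points, adjusted p 0.0592), without control 2 (adjusted p 0.173) and without KO 2 (adjusted p 0.0931), and held in the window of 500 bases on each side, which leaves the unmethylated stretch out (93.2% ± 1.89 and 78.8% ± 3.41, -14.5 points, adjusted p 2.79e-04, all by the quasi-binomial model). None of the positions inside the 250 bases printed for Dazl had 5 calls in all 9 samples.

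**Figure D3:**
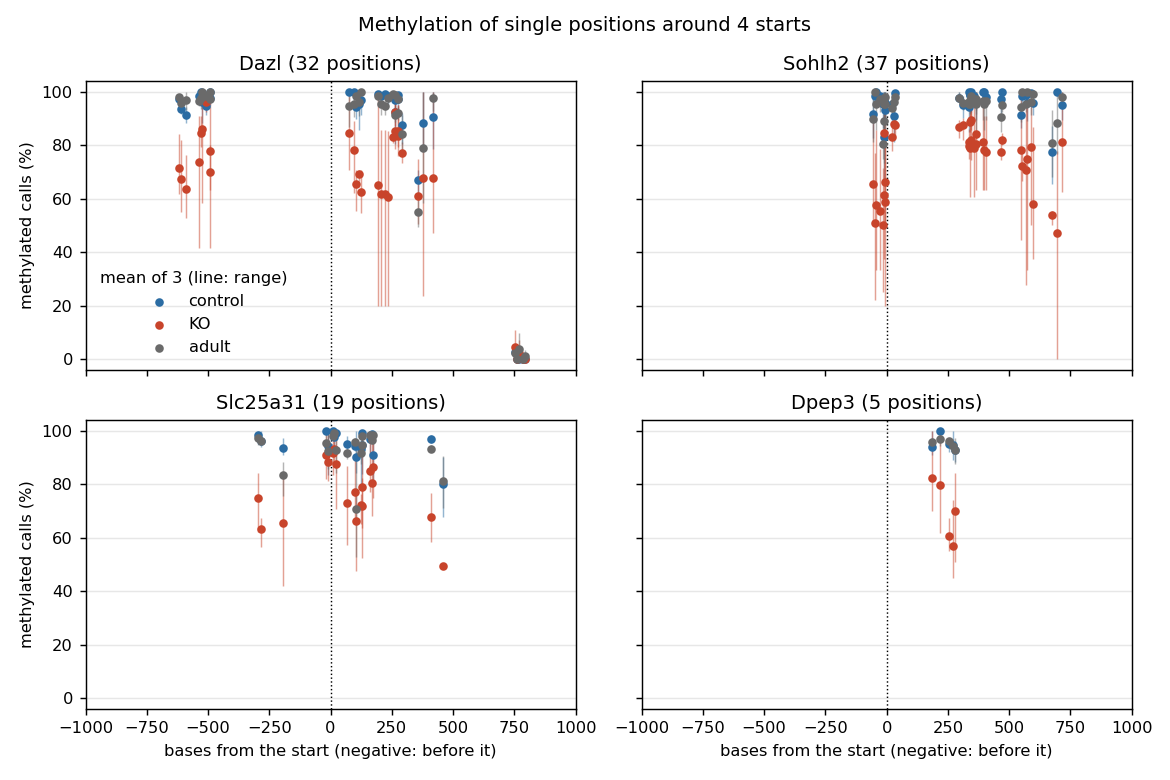
Percent of methylated calls at each usable position around the starts of Dazl, Sohlh2, Slc25a31 and Dpep3, by distance from the start in bases; points are the mean of 3 samples and thin lines their range. Control and adult points lie mostly above 80% and KO points mostly below them, except for the 5 positions of Dazl from 754 bases, which lie near 0 in all groups.

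Boll and Nobox, whose RNA stayed near 0, had partly methylated start windows. At Nobox no position within 500 bases of the start had a call in any sample, so its window was read further out only. Boll has 2 annotated starts, and its 29 positions gave 30.4% ± 0.844 in KO against 35.5% ± 1.02 in controls (SD, n = 3 each), which did not pass (quasi-binomial adjusted p 0.459), although the groups did not overlap. The starts differed: within 500 bases of the start at 55362728, 21 positions had 56.8% ± 0.308 in controls and 44.2% ± 5.50 in KO, and within 500 bases of the start at 55363753, 8 positions had 4.16% ± 0.271 and 4.15% ± 0.736. Weighing each position the same, the fall at Boll was -12.4 points and passed in limma (adjusted p 0.0450). Nobox had 4 positions, 37.0%, 36.6% and 30.2% in controls and 26.5%, 17.7% and 23.2% in KO, a difference of -12.1 points that did not pass (quasi-binomial adjusted p 0.256). In each of the 6 windows the exact two-sided permutation p for KO against control was 0.1, the smallest that 3 samples against 3 allow. How many of all windows separate the groups in this way was not counted, so nothing about these genes is read from it.

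**Figure D4:**
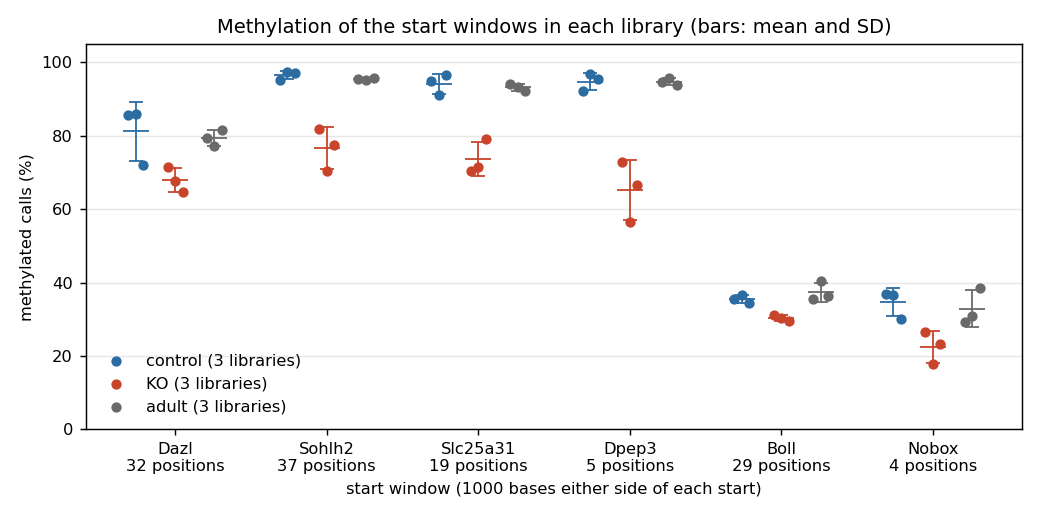
Percent of methylated calls over the start window of the 6 genes that could be tested, 1 point per sample for 3 control, 3 KO and 3 adult samples, with the mean and SD as bars. KO points lie below all control points in each window, a separation that was not counted over all windows, and adult points overlap the controls.

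The falls at these genes were set beside those of other methylated starts. Of the 1258 windows at 60% or more in controls, 87.0% fell by more points than Dazl, 63.3% by more than Sohlh2, 59.9% by more than Slc25a31 and 19.8% by more than Dpep3. Methylation remaining in KO was 65.3% to 76.6% of calls at the 4 starts, while the RNA of these genes was 150 to 3990 times its control total. What share of the cells carried the deletion was not measured here.

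**Figure D5:**
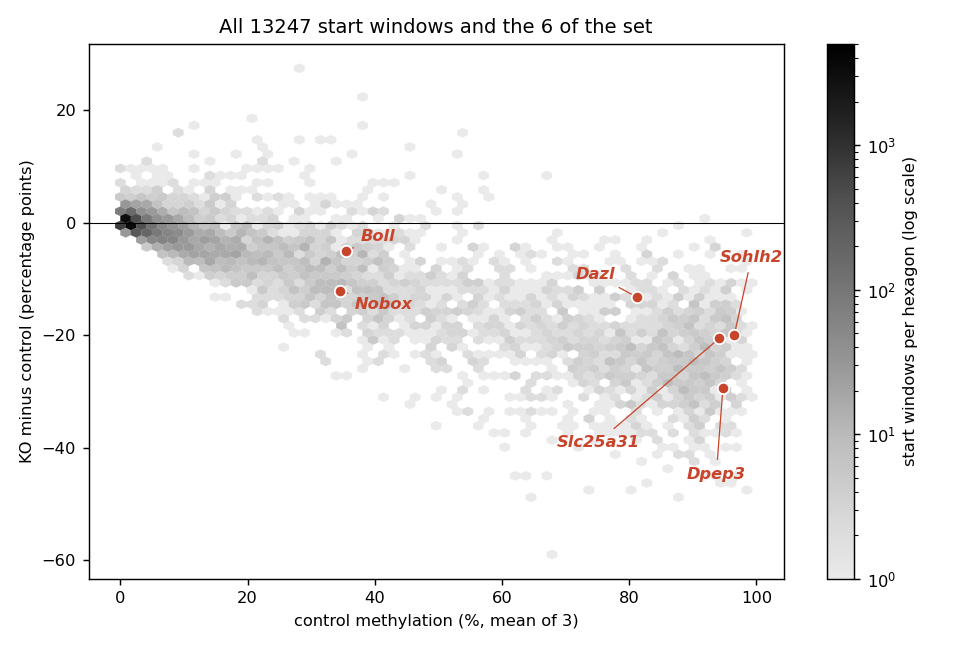
KO minus control methylation in percentage points against control methylation for all 13247 start windows, as hexagons shaded by the number of windows on a log scale, with the 6 windows of the set in red. The 4 methylated starts of the set lie within the cloud of other methylated windows.

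Between adults and newborn controls none of the 6 start windows passed the test. Adult means were 79.4% ± 2.29 at Dazl, 95.4% ± 0.269 at Sohlh2, 93.2% ± 0.951 at Slc25a31, 94.8% ± 0.984 at Dpep3, 37.4% ± 2.56 at Boll and 32.9% ± 5.03 at Nobox (SD, n = 3 each). The differences from control ran from -1.82 points at Dazl to 1.92 points at Boll, the groups overlapped in all 6 windows, and 0 of the 6 passed, where 4.45% of all windows were lower and 1.61% higher in adults. The quasi-binomial model gave no unadjusted p under 0.05 for any of the 6 (lowest 0.105, at Sohlh2), and limma called none. At Dazl the difference was -6.42 points both without control 3 (quasi-binomial adjusted p 0.0166) and with a minimum of 1 call (adjusted p 0.0481), under the limit of 10 points.

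Sohlh1, Figla, Stk31 and Tdrd12 had too few shared positions at their starts, and their pooled calls are given without a test. At Sohlh1, 89.1% of 513 calls were methylated over the controls, 69.1% of 178 over the KO samples and 86.5% of 591 over the adults. At Figla the shares were 93.5% of 170, 54.9% of 133 and 92.2% of 423 calls. Both shares were lower in KO than in controls, over positions that differed between samples. At Stk31 (28 control calls) and Tdrd12 (65 control calls) the depth was too low to describe.

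Over each whole gene with 2 kb on both sides, 8 of the 10 genes had enough positions and 7 of the 8 were lower in KO, where 47.2% of 18933 genes were lower and 0.0158% higher. At Dazl, Slc25a31, Dpep3 and Nobox the usable positions were those of the start window alone. Their whole-gene values therefore repeat the start window and add nothing on the rest of the gene. Stk31, through 4 positions, went from 90.1% ± 1.26 to 57.3% ± 11.1 (-32.8 points), and Tdrd12, through 17 positions, from 79.8% ± 2.47 to 56.0% ± 7.23 (-23.8 points, SD, n = 3 each, quasi-binomial adjusted p 3.32e-04 and 1.76e-04). The positions used at Stk31 and Tdrd12 lay outside their start windows, so these values do not describe methylation at their starts. How they relate to the RNA of these genes was not tested. Boll fell by 10.1 points (quasi-binomial adjusted p 0.00659), and Nobox did not pass. In adults, 0 of the 8 passed, where 10.3% of genes were lower and 2.74% higher. Tdrd12 was at 87.7% ± 1.74 in adults (7.91 points above control, quasi-binomial adjusted p 0.0806) and Boll at 48.9% ± 0.925 (-8.82 points, under the 10-point limit).

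Single positions were also tested. Many of them were part of the start windows, as all 19 at Slc25a31 were, so there they add no separate support. Of 894 positions with a call in or within 2 kb of the 10 genes, 88 had at least 10 calls in each control and KO sample. Of these, 43 were lower and 0 higher in KO, where 35.2% of 380162 positions were lower and 0.127% higher. Lower positions numbered 11 of 18 at Sohlh2, 9 of 19 at Slc25a31, 7 of 20 at Dazl, 5 of 10 at Tdrd12, 3 of 12 at Boll, 3 of 3 at Dpep3, 2 of 2 at Stk31, 2 of 2 at Figla and 1 of 2 at Nobox, and Sohlh1 had none to test. Positions of 1 fragment share reads and are not independent.

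The position with the largest fall of all 88 was in Tdrd12, on chromosome 7 at 35490092, with 82.4%, 90.7% and 100% in controls and 38.1%, 33.3% and 20% in KO (-60.6 points, quasi-binomial adjusted p 8.71e-04) from 10 to 54 calls per sample. The largest falls elsewhere were -37.7 points at Dpep3 (271 bases after the start), -33.2 at Stk31 (12991 bases after the start), -32.8 at Slc25a31 (at -283 bases from the start), -32.3 at Figla, -27.7 at Dazl (at -589 bases from the start), -26.0 at Nobox (at -833) and -22 at Sohlh2 (396 bases after the start), all past the test. At Boll the largest fall, -32.0 points, did not pass (quasi-binomial adjusted p 0.139). The highest differences were 15.9 points at Tdrd12, 9.28 at Boll and 2.38 at Dazl, none past the test, and were negative at the other genes: -2.47 at Sohlh2, -3.55 at Nobox, -4.37 at Slc25a31, -22.8 at Dpep3, -23.0 at Figla and -26.1 at Stk31. The Figla positions, 86022499 and 86022599, lay beyond the end of the gene.

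Between adult and control, 154 positions of the set could be tested, of which 0 were lower and 1 was higher, where 1.98% of 704580 positions were lower and 1.9% higher. The 1 position, named after its value was seen, was in Tdrd12 at 35505847, with 66.7%, 51.1% and 56.7% in controls and 100%, 100% and 84.0% in adults (36.5 points, quasi-binomial adjusted p 0.0118). In KO it had 41.9%, 45.2% and 72.7%, which overlapped the controls. The call was lost without adult 1, without adult 2 and with the replicate number as a block.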

How the data were processed

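RNA was read in 3 control and 3 KO libraries and RRBS in 3 control, 3 KO and 3 adult samples. The deposited RNA values are raw read counts per gene, and the deposited RRBS values give methylated and unmethylated read counts and a percent per cytosine, per the file headers and values. The submitters' processing notes name STAR 2.4.1d, HTSeq 0.6.1, Trim Galore and Bismark and the build GRCm38. The members and the gene lists were chosen with earlier results of these data known. Counts were tested with edgeR 4.0.16 (quasi-likelihood test, TMM factors, its default filter on low counts, R 4.3.3) over all genes, with Benjamini-Hochberg adjustment at 0.05. Lines that name no gene stayed out of library sizes. Ratios of totals carry 95% counting intervals, and a total of 0 was set to 3 counts over the group. Intervals cover counting error only.

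Methylated and total calls were summed per sample over start windows (1000 bases either side, at least 5 calls in all 9 samples, at least 3 positions), over whole genes with 2000 bases either side, or taken at single positions with at least 10 calls in the 6 samples compared. They were tested in a logistic model with quasi-binomial dispersion, moderated over all features (Python 3.11.15, numpy 2.4.6, scipy 1.17.1) and adjusted over all of them, with a minimum of 10 points. Statistics were tested on simulated data. Of each list, up to 4 called genes with the smallest p are named, all genes of the list of 4, the 5 genes most like Dazl and Sohlh2, and per gene the positions with the lowest and highest difference. Alternatives used DESeq2 1.42.0, limma 3.58.1, other filters, windows, thresholds and left-out replicates. Positions were placed on RefSeq starts of GRCm38.p6, and exons and introns were not used here. Replicate numbers did not pair samples. Of the neighbouring genes called lower, 1 is not reported here.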

Additional observations from a re-analysis of the deposited data

How the results depend on the processing

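Of 234 alternative values of summary counts 171 stayed within 1.5 times the value reported. Another 243 values were for single genes and for the counts of all lower start windows. Of these, 212 were kept, in direction and call for genes and within 1.5 times for those counts. With at least 10 counts in every sample none of the 10 genes could be tested and their count was 0. The set was chosen on this contrast, and nothing is read from its count under other settings. With that filter 678 genes were higher in all, and the lists held 1 higher transcription factor, 0 oocyte genes, 1 Tudor gene and 1 lower relative. At an adjusted p under 0.01, 528 genes were higher and 681 lower, with 0 lower transcription factors, 0 oocyte genes, 1 DAZ partner, 0 lower Tudor genes, 1 lower relative and 0 higher repressors. The oocyte count was also 0 with DESeq2, limma voom, library size alone and no filter. DESeq2 gave 2 higher repressors, and library size alone 0 lower transcription factors and 1 lower relative. Leaving out 1 library gave 647 to 2512 higher and 701 to 2561 lower genes (the highest without control 3), 0 to 1 lower transcription factors, 0 to 1 oocyte genes, 1 to 4 DAZ partners, 0 to 1 lower Tudor genes, 1 to 3 lower relatives and 0 to 3 higher repressors.

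Lower start windows of the set numbered 7 over whole genes and 1 at 25 points. Lower single positions numbered 27 with at least 20 calls, 19 at 25 points and 25 to 41 with 1 sample left out, which gave 0 to 1 higher positions in KO and 0 to 1 in adults. Adult differences changed sign at Boll with at least 10 calls (-0.409 points), at least 1 call (-1.26), over the whole gene (-8.82) and in limma (-3.20), and in limma at Dpep3 (-0.168) and Nobox (0.729). With 1 sample left out they ran from -6.42 to 0.569 points at Dazl, from -1.29 to 1.04 at Dpep3, from -2.47 to 0.236 at Slc25a31 and from -4.53 to 0.218 at Nobox. The cause was not tested.

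Samples with the same number did not deviate together (correlations of -0.272, -0.0895 and -0.140 in RNA), so the numbers do not pair them. With the replicate number as a block there were 0 lower transcription factors, 0 oocyte genes, 26 lower positions in KO and 0 higher positions in adults. Depth limits Sohlh1, Figla, Stk31 and Tdrd12 most, at whose starts no window could be tested.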

Other observations

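Genes next to the set were higher, lower or did not pass. Of the 20 nearest genes with a symbol on either side, 18 were tested, 2 were higher and 3 lower in KO by edgeR. Over all genes tested 6.36% were higher and 8.23% lower, and nothing is read from counts this small. Hspa4l, a heat shock protein gene 18406 bases from Slc25a31, rose from 17.2 ± 3.10 to 41.4 ± 2.08 CPM (SD, n = 3 each, log2 fold change 1.27, edgeR adjusted p 0.00145). Npy, the neuropeptide Y gene, 353204 bases from Stk31, rose from 3.81 ± 0.933 to 7.75 ± 0.468 CPM (edgeR adjusted p 0.0262). On either side of Tdrd12, whose own reads were fewer in KO, Slc7a9, an amino acid transporter subunit of the proximal tubule, and Nudt19 fell (log2 fold changes of -2.12 and -0.78, edgeR adjusted p 0.0392 and 0.0239), with 2135 of the 2984 control reads of Slc7a9 in control 3. The neighbours of Dazl, Rftn1 and Plcl2, and Dclk1 next to Sohlh2 had log2 fold changes of -0.39, -0.25 and -0.04 and did not pass.

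Among genes with lower methylation at a methylated start, a minority were called higher in RNA. Of 322 genes at 80% or more in controls and lower in KO, 129 were tested for RNA and 38 were higher by edgeR (11.8% of the 322), and of the 188 under 0.1 CPM in controls, 20 (10.6%) reached 1 CPM in KO. These include Dazl, Sohlh2, Slc25a31 and Dpep3, which were chosen for that rise, and the germ cell genes Asz1, Mael, Mov10l1, Taf7l, Hormad1 and Fkbp6. Of 9084 genes with a start under 10%, 8468 were tested and 302 were higher (3.32% of the 9084), and of the 410 of those under 0.1 CPM in controls, 4 (0.976%) reached 1 CPM.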
